A study of Homo sapiens with 5 samples.

Results

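The genes described here encode 47 proteins of the splicing machinery and of related RNA-binding rings: the Sm and LSm proteins, the proteins bound to single small nuclear ribonucleoproteins (snRNPs), the SF3a and SF3b complexes, the U2AF heterodimer and the PRPF proteins. They were taken by symbol from the count table, where all 47 had a row among 24497 gene rows, and all 47 passed the filter on low counts. The libraries were made from HEK293, an established human cell line derived from embryonic kidney, grown in serum-containing medium with no treatment named. The column names of all 5 libraries share the word tween, which the sample titles do not carry. In both batches a lysate of 1000 cells was reverse transcribed from oligo-dT, the product of 100 cells was amplified with 18 cycles of PCR, and 5' end fragments were selected, so that a read marks the start of a transcript copy. The 2 groups compared are batch A, with 2 libraries, and batch B, with 3. Whether they came from separate cultures is not said, so a p-value here speaks for the spread among the 5 libraries, part or all of which may be technical. In edgeR that spread was pooled over genes, so a gene's own scatter does not set its p-value. In such bulk material fewer cells and less RNA per cell cannot be told apart.

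Splicing is carried out by snRNPs, particles in which a small nuclear RNA is held by a ring of Sm proteins or, for U6, by a ring of LSm proteins, and to which particle-specific proteins are added. U1 and U2 recognise the ends of an intron and the branch point, with the help of U2AF, and the U4/U6.U5 tri-snRNP then joins to form the active site. Related rings act elsewhere: one that contains LSM1 binds mRNA ends in the cytoplasm ahead of decapping, and one with LSM10 and LSM11 forms on U7 RNA, which guides the cutting of histone mRNA 3' ends. In a dividing line such as HEK293 these genes are housekeeping genes.

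Depth was 373687 to 803168 gene counts per library, and libraries are named by the numbers that end their columns, 2 and 3 for batch A, then 1, 2 and 3 for batch B. Levels are in CPM, a gene's count scaled to a common total of gene counts. All 8 HEK293 markers were detected, with a summed level of 708 to 721 CPM in batch A and 782 to 851 CPM in batch B. VIM carried most of this sum, at 440 and 417 CPM in batch A and 549, 500 and 501 CPM in batch B. PAX2 had no more than 4 counts in a library, and INA had 0 counts in batch B library 2. Of the other marker lists, only 3 of 6 blood, 2 of 3 liver and 1 of 3 endothelial markers had a row. The rows present summed to at most 6.95 CPM per list in any library, a check of part of each list. Fibroblast markers summed to at most 21.9 CPM. There COL1A1 carried most of the sum with 34 counts over the 5 libraries, LUM had 4 counts, DCN 1 and COL1A2 none. The part of these cell types in the differences between batches was not tested.

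The members spanned 13.7 to 1083 CPM as means over the 5 libraries, with a median of 187 CPM against 45.9 CPM over all 9215 tested genes, and 35 of the 47 lay above 100 CPM. Together they took 1.39% and 1.36% of gene counts in batch A libraries 2 and 3, and 1.28%, 1.33% and 1.33% in batch B libraries 1, 2 and 3. All batch B libraries lay below both batch A libraries, by 0.06 percentage points on average, and no test was made of this sum. The Sm ring alone held 42.6% of the members' counts, the U2 proteins 18.8% and the LSm rings 16.2%. Within batch B the median coefficient of variation was 8.47% over the members and 17.8% over all tested genes, which are mostly of lower count.

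**Figure D1:**
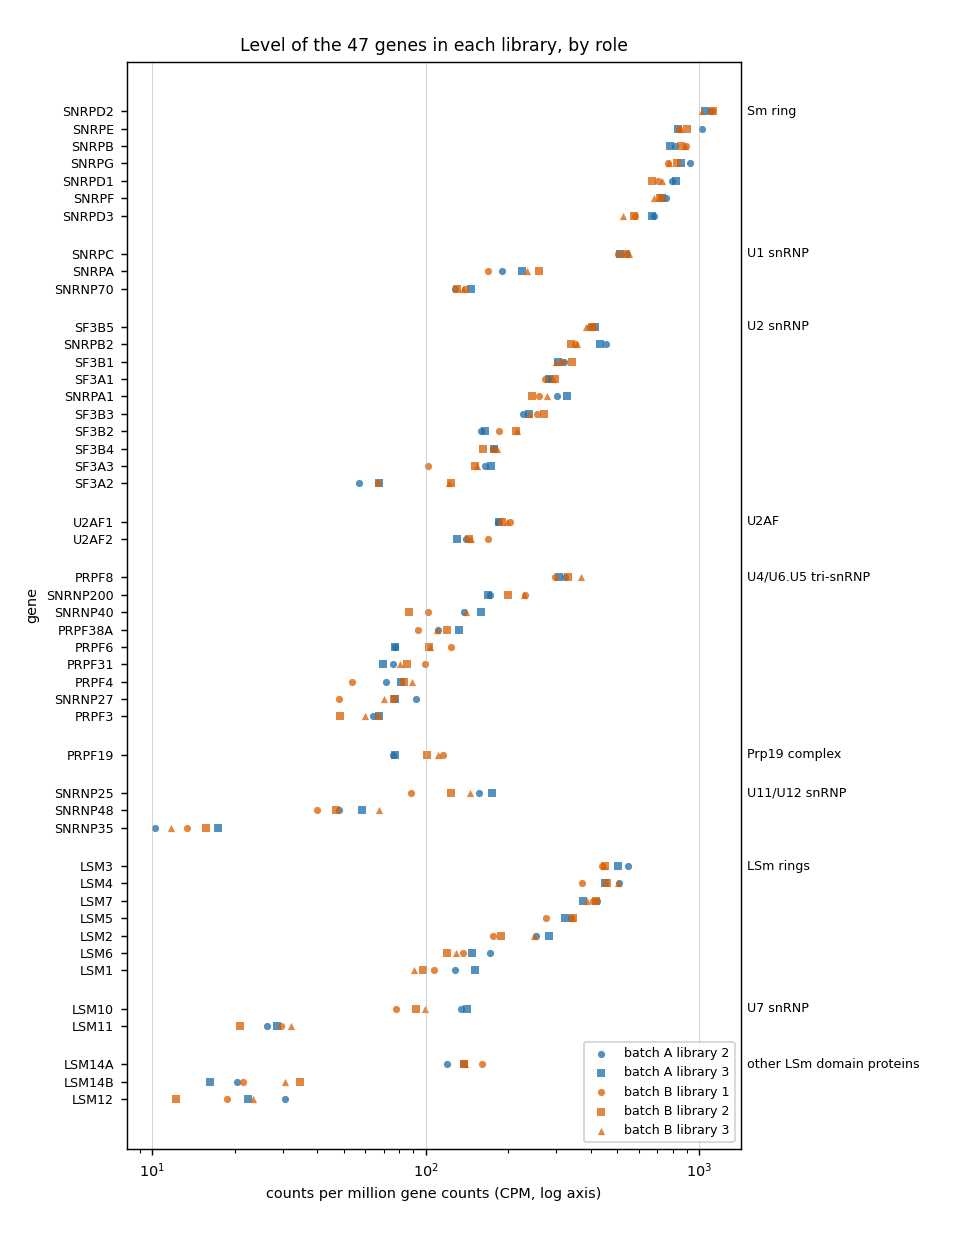
Level of each of the 47 genes (vertical axis, grouped by role) in CPM on a log axis, with 1 point per library, blue for batch A and orange for batch B. The Sm ring genes lie between 524 and 1123 CPM, and SNRNP35, at 10.2 to 17.4 CPM, has the lowest mean, with LSM14B below it in batch A library 3 and LSM12 in batch B library 2.

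In the comparison of batch B with batch A, which asks how far the same line differed from one batch to the next, 1 member rose and 3 fell. SF3A2, a subunit of the SF3a complex of the U2 snRNP, rose 1.77-fold. LSM10 of the U7 snRNP fell by 0.57, LSM1 of the cytoplasmic LSm ring fell by 0.51 and SNRPB2, the U2 B'' protein, fell by 0.33 on the log2 scale. A call is a Benjamini-Hochberg adjusted p under 0.05 over all tested genes in edgeR's quasi-likelihood F test, and 4 of 47 members were called (8.51%), against 4.2% of all tested genes. The share was 2.13% for higher members against a background of 2.15%, and 6.38% for lower members against 2.05%, the latter resting on 3 genes. At an unadjusted p under 0.05 by the same edgeR test there were 15 members (31.9%), against 16.4% of all tested genes. The median log2 fold change was 0.00 over the members and 0.00 over all tested genes, and its median absolute size was 0.17 and 0.23. CPM values of the batches did not overlap for 23 of 47 members, 9 higher and 14 lower in batch B, a share of 48.9% against a background of 31.3%. The 9 higher members made 19.1% against 13.5%, and the 14 lower ones 29.8% against 17.8%. These shares are set against genes of lower count on average, and the part of depth in them was not tested.

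SF3A2 had 56.8 and 67.2 CPM in batch A, and 66.9, 123 and 121 CPM in batch B. Batch B library 1 lay inside the range of batch A, and the other 2 batch B libraries lay far above it, so the batches overlapped. The counts behind these levels were 39 and 54 against 25, 71 and 83. The log2 fold change was 0.82 (SE 0.20, edgeR adjusted p = 0.00214). The SE and p-value rest on spread pooled over genes, not on the scatter of SF3A2 itself within batch B. Leaving out library 2 of batch A ended the call (edgeR adjusted p = 0.0774), as did leaving out library 2 of batch B (0.0702), thinning to the smallest library (0.203), the DESeq2 Wald test (0.0753) and removal of the trend on transcript GC content (0.147, log2 fold change 0.50). PLEKHJ1, which lies on the opposite strand and overlaps SF3A2, had counts of 45 and 45 against 23, 53 and 50, with a log2 fold change of 0.37 (edgeR adjusted p = 0.394). Use of strand in the counting is not given in the sources used here, so reads of the pair may not be fully separated.

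LSM10 had 134 and 142 CPM in batch A, and 77.6, 92.1 and 99.2 CPM in batch B. Every batch B library lay below both batch A libraries. The log2 fold change was -0.57 (SE 0.17, edgeR adjusted p = 0.0217). The call ended when library 2 or 3 of batch A was left out (edgeR adjusted p = 0.123 and 0.207), when library 1 or 2 of batch B was (0.0649 and 0.0759), and with DESeq2 (0.129), while the fitted value stayed between -0.63 and -0.51 over the 5 fits that left out a library. With thinning it was -0.86. LSM11, its partner in the U7 ring, was at 26.2 and 28.6 CPM in batch A and at 29.4, 20.9 and 32.1 CPM in batch B. These libraries overlapped, and the log2 fold change of 0.02 had a wide standard error of 0.35.

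LSM1 had 128 and 151 CPM in batch A, and 107, 97.3 and 90.5 CPM in batch B. The batches did not overlap. The log2 fold change was -0.51 (SE 0.16, edgeR adjusted p = 0.0469), close to the threshold of 0.05. Among the 5 fits that left out a library it was called only without batch B library 1, and the adjusted p by edgeR was 0.102 and 0.444 without batch A libraries 2 and 3 and 0.131 and 0.24 without batch B libraries 2 and 3. It was also lost with DESeq2 (adjusted p = 0.201), limma-voom (0.0529), thinning (0.182), no filter on low counts (0.101) and removal of the length or the GC trend (0.0791 and 0.0546). BAG4, on the opposite strand and overlapping, had 15 to 37 counts per library and a log2 fold change of -0.10 (edgeR adjusted p = 0.916).

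SNRPB2 had 457 and 435 CPM in batch A, and 351, 341 and 356 CPM in batch B. It was the most abundant of the 4 called members, and its libraries did not overlap between batches. The log2 fold change was -0.33 (SE 0.11, edgeR adjusted p = 0.0469). None of the 5 fits with a library removed kept the call (edgeR adjusted p = 0.0553 to 0.414) and under 7 further settings, with DESeq2 size factors (0.0552), DESeq2 (0.095), limma-voom (0.0601), no filter on low counts (0.0879), thinning (0.208), the length trend removed (0.0513) and the GC trend removed (0.0731). The direction was kept in each of these fits, at -0.38 to -0.27.

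**Figure D2:**
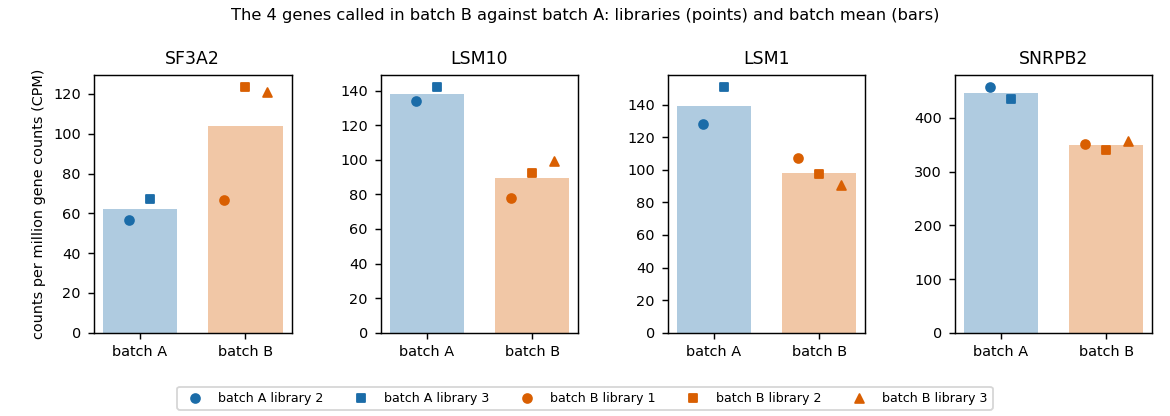
CPM (linear axis from 0) of the 4 called genes, with points for libraries and bars for the batch mean. SF3A2 has 1 batch B library, at 66.9 CPM, level with batch A, and for LSM10, LSM1 and SNRPB2 every batch B point is below both batch A points.

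Because reads mark transcript starts, the bases before the annotated start are shown for 3 called members, 120 bases each, from RefSeq on GRCh38.p14, a later build than the hg19 of the submitters' processing notes. Capitals mark matches on either strand to the motifs searched, of which CCGGAAG (bound by ETS factors), CCAAT and GGGCGGG (bound by SP factors) occur here.
SF3A2, chr19:2236704-2236823, plus strand: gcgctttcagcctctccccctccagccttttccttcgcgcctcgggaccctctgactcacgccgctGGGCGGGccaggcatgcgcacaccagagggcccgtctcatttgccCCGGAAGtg
LSM10, chr1:36397909-36398028, minus strand: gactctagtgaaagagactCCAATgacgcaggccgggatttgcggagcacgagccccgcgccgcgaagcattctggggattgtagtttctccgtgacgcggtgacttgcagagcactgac
SNRPB2, chr20:16729906-16730025, plus strand: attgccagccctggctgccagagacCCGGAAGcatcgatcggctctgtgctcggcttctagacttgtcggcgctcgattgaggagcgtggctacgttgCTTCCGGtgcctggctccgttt

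The riser SF3A2 and the faller SNRPB2 both carry the ETS letters, once and on both strands respectively. A promoter of 300 bases, 250 before and 50 after the start, was found by symbol for 40 of the 47 members. CCGGAAG was in 17 of these 40 (42.5%), against 12.2% of all 27305 genes with a promoter and 24.9% of the 6907 tested genes among them. CCAAT was in 17 (42.5%, against 44.5% of tested genes) and GGGCGGG in 19 (47.5%, against 64.5%). The TATA letters TATAAA were found in 1 member, SNRPC (2.5%, against 7.49% of tested genes), 237 bases before the start and on the reverse strand. The NRF1 motif was found in LSM7 (3.05% of tested genes) and the YY1 motif in SF3A1 (2.95%). Members with several listed promoters count once, and no motif contains another. SNRPG and SNRPE, both among the 17 with CCGGAAG, have listed starts downstream of their start codon, so their windows hold or follow that codon. These shares are descriptions with no test, and a match is not a binding site.

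The Sm ring is made of SNRPB, SNRPD1, SNRPD2, SNRPD3, SNRPE, SNRPF and SNRPG, which assemble in equal numbers around the RNA of U1, U2, U4 and U5. None of the 7 was called, and their log2 fold changes ran from -0.25 to 0.16. SNRPD2 was the highest member in every library, at 1106 and 1052 CPM in batch A and 1111, 1123 and 1025 CPM in batch B, with overlapping batches. SNRPD3 was the lowest of the ring in every library, at 683 and 669 CPM in batch A and 583, 579 and 524 CPM in batch B. Its batches did not overlap, but its log2 fold change of -0.25 (SE 0.11) did not pass the test (edgeR adjusted p = 0.21). SNRPB, which encodes the proteins B and B', was the ring gene with all batch B libraries above batch A, at 814 and 782 against 891, 855 and 887 CPM (log2 fold change 0.16, edgeR adjusted p = 0.505). SNRPD1, SNRPF and SNRPG had all batch B libraries below batch A, and SNRPE overlapped. For SNRPF the log2 fold change was only -0.04 (edgeR adjusted p = 0.903). With SNRPD3 they made 4 of the 7 ring genes, where the share over all tested genes was 17.8%. SNRPB was 1 of 7 above, against 13.5%.

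The highest mean in the ring was 1.78 times the lowest per read. Per kilobase of the annotated principal transcript, the range was 8.76-fold, from 1327 CPM per kilobase for SNRPG to 152 CPM per kilobase for SNRPD1, whose annotated transcript has 4909 bases. By CPM all 7 ring genes were among the 10 highest members, and per kilobase 6 were. Division by length assumes that reads cover the whole transcript, which a 5' selective library is not built to do, so both scales are given. SNRPN, which encodes a close relative of SNRPB, was listed at 0 counts in all 5 libraries. Counting error alone allows up to 3.74 CPM in the deepest library and 8.03 CPM in batch B library 1. Since the counter and annotation are not stated in the sources used here, the 0 counts do not show that SNRPN was absent.

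SNRPG shares sequence with rows of processed pseudogenes, copies of its mRNA elsewhere in the genome. Among the members, its pseudogene rows, matched by name, held the most counts relative to the gene. The first 60 coding bases of SNRPG and of its 3 pseudogene rows with at least 10 counts are shown, from the GENCODE 29 transcripts on GRCh38, with bases that differ from SNRPG in capitals.
SNRPG: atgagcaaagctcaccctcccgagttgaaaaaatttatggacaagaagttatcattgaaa
SNRPGP10: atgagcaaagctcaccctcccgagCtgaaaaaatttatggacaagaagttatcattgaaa
SNRPGP2: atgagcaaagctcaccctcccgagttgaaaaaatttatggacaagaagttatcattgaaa
SNRPGP15: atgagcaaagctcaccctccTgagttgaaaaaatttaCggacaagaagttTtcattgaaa

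Counted from the A of the start codon, with the SNRPG base first, SNRPGP10 differs in this stretch by T25C, SNRPGP15 by C21T, T38C and A51T, and SNRPGP2 by no base. Over the 225, 226 and 222 aligned bases SNRPGP10 on chromosome 1, SNRPGP2 on chromosome 18 and SNRPGP15 on chromosome 19 were 98.2%, 97.8% and 97.7% identical to SNRPG. SNRPGP10 had 176 and 137 CPM in batch A and 99.0, 127 and 142 CPM in batch B, and SNRPGP2 had 162 and 173 against 112, 132 and 136 CPM. All 9 SNRPG pseudogene rows together held 982 counts, 37.6% of the 2615 counts of SNRPG, and 30.7% to 39.9% in single libraries. SNRPG itself had 923 and 857 CPM in batch A and 768, 825 and 775 CPM in batch B, and with its pseudogene rows added 1284 and 1185 against 1004, 1121 and 1084 CPM, so that the batches did not overlap either way. Its level is uncertain, since reads may be split among these rows, and how many were shared was not measured. SNRPGP10, SNRPGP2 and SNRPGP15 were not called (edgeR adjusted p = 0.342, 0.161 and 0.376). The pseudogene rows of SNRPE held 5.7% of its counts, and those of the other members with such rows at most 7.25%, for LSM12 with 5 counts.

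**Figure D3:**
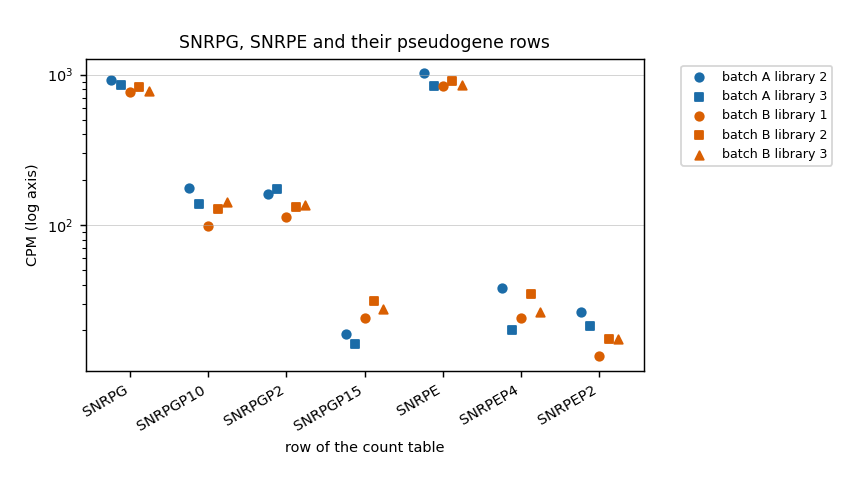
CPM on a log axis of SNRPG, SNRPE and their pseudogene rows with at least 10 counts, with 1 point per library. SNRPGP10 and SNRPGP2 lie between 99.0 and 176 CPM, below SNRPG at 768 to 923 CPM.

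The U1 proteins SNRNP70, SNRPA and SNRPC bind U1 RNA or support its pairing with the 5' splice site, and none was called. SNRPC was the highest, at 543 and 514 CPM in batch A and 503, 540 and 555 CPM in batch B. SNRNP70 was the lowest, at 128 and 146 CPM in batch A and 139, 130 and 137 CPM in batch B. SNRPA varied most, from 169 to 259 CPM within batch B. All 3 genes had overlapping batches, with log2 fold changes of 0.00 to 0.15.

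Of the 10 U2 proteins, SF3A2 rose, SNRPB2 fell and 8 did not pass the test. SNRPA1, the U2 A' protein that forms a dimer with the SNRPB2 product, had 301 and 329 CPM in batch A and 260, 245 and 277 CPM in batch B. The batches did not overlap, and the log2 fold change of -0.25 (SE 0.11) did not pass the test (edgeR adjusted p = 0.237). The other SF3a subunits differed from SF3A2 in direction or size, with log2 fold changes of 0.06 for SF3A1 and -0.25 for SF3A3, and these differences between subunits were not tested. SF3A3 had 165 and 173 CPM in batch A and 102, 151 and 153 CPM in batch B, with batch B library 1 the lowest.

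In the SF3b complex, which holds the branch point, SF3B5 was the highest, at 399 and 417 CPM in batch A and 407, 405 and 385 CPM in batch B. SF3B1, its largest scaffold protein, was at 320 and 304 against 316, 342 and 299 CPM. Both overlapped between batches. SF3B2 was at 159 and 164 CPM in batch A and 185, 214 and 215 CPM in batch B. Every batch B library was above batch A, with a log2 fold change of 0.38 (SE 0.13) that did not pass the test (edgeR adjusted p = 0.0785) unless genes with a mean count under 20 were left out (0.0347). SF3B3 and SF3B4 had log2 fold changes of 0.14 and -0.01.

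The U2AF heterodimer binds the 3' end of the intron, U2AF2 at the polypyrimidine tract and U2AF1 at the AG. U2AF1 had 183 and 186 CPM in batch A and 203, 189 and 198 CPM in batch B. U2AF2 had 140 and 129 against 169, 144 and 146 CPM. Both genes had all batch B libraries above batch A, by small amounts, with log2 fold changes of 0.11 (SE 0.13) and 0.19 (SE 0.15) that did not pass the test.

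None of the 9 genes grouped here with the tri-snRNP, PRPF38A among them, was called. Their log2 fold changes ran from -0.39 to 0.51. PRPF8, the U5 protein at the heart of the active site, was the highest, at 322 and 308 CPM in batch A and 297, 330 and 371 CPM in batch B. PRPF3, a U4/U6 protein, had the lowest mean, at 64.1 and 67.2 against 66.9, 48.7 and 59.8 CPM. SNRNP200, the helicase that unwinds U4 from U6, had 172 and 169 CPM in batch A and 230.1, 199.8 and 229 CPM in batch B. No libraries overlapped, and the log2 fold change was 0.38 (SE 0.13, edgeR adjusted p = 0.064), which passed only where genes with a mean count under 20 were left out (0.0266). PRPF6, a U5 protein that bridges to U4/U6, had 77.2 CPM in both batch A libraries and 123, 103 and 104 CPM in batch B (log2 fold change 0.51, SE 0.19, edgeR adjusted p = 0.103). PRPF31 also had all batch B libraries above batch A, with a log2 fold change of 0.28.

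In the opposite direction, the U5 protein gene SNRNP40 had 138 and 159 CPM in batch A and 102, 86.9 and 140.1 CPM in batch B. Batch B library 3 reached into the range of batch A, and without it the log2 fold change of -0.39 became -0.64 and was called (edgeR adjusted p = 0.0274). SNRNP27 had 91.7 and 77.2 CPM in batch A against 48.2, 76.5 and 70.1 CPM in batch B, with no overlap and no call. PRPF4 and PRPF38A overlapped between batches.

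PRPF19, the ubiquitin ligase at the core of the complex that activates the spliceosome, had 75.7 and 77.2 CPM in batch A and 115, 101 and 111 CPM in batch B. The batches did not overlap. The log2 fold change of 0.52 (SE 0.19) did not pass the test (edgeR adjusted p = 0.0875).

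The minor spliceosome, which removes a rare class of introns, is represented by the U11/U12 proteins SNRNP25, SNRNP35 and SNRNP48, none of which was called. SNRNP25 had 156 and 174 CPM in batch A and 88.3, 123 and 144 CPM in batch B. The batches did not overlap, and the log2 fold change was -0.40 (SE 0.15, edgeR adjusted p = 0.106), with a call without batch B library 3 (0.0487) and with the GC trend removed (0.0343). POLR3K, which overlaps it on the opposite strand, had 128 to 315 counts per library and a log2 fold change of -0.19 (edgeR adjusted p = 0.364). SNRNP35 had the lowest mean of all members, with counts of 7 and 14 in the first batch against 5, 9 and 8 in the second, a depth at which its log2 fold change of -0.03 had a standard error of 0.51. SNRNP48 was at 48.0 and 58.5 against 40.1, 46.9 and 67.1 CPM.

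The LSm rings share LSM2 to LSM7, and LSM1 completes the cytoplasmic form. LSM1 fell and the other 6 did not pass the test, with log2 fold changes of -0.33 to 0.05. LSM3 had the highest mean per read, at 550.3 and 504 CPM in batch A and 442, 452 and 447 CPM in batch B. LSM4 was above it in batch B libraries 2 and 3. LSM1 had the lowest mean, and the ratio of highest to lowest mean was 4.17 per read and 12.2 per kilobase, where LSM7 was highest (762 CPM per kilobase) and LSM6 lowest (62.3 CPM per kilobase). LSM2 had 253 and 281 CPM in batch A and 177, 188 and 248 CPM in batch B, and LSM6 had 172 and 147 against 136, 119.9 and 128 CPM. With LSM1 and LSM3 they made 4 of the 7 genes whose batch B libraries were all below batch A, where the share over all tested genes was 17.8%, and none was all above, against 13.5%. LSM2 was called without batch B library 3 (log2 fold change -0.50, edgeR adjusted p = 0.0199) and with the GC trend removed (0.0381). LSM4, LSM5 and LSM7 overlapped between batches.

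The remaining LSm domain proteins act outside splicing, LSM14A and LSM14B in translational repression and storage of mRNA in cytoplasmic granules. LSM14A had 119 and 138 CPM in batch A and 161, 137 and 139 CPM in batch B. LSM14B had 20.4 and 16.2 against 21.4, 34.8 and 30.6 CPM, the second largest fitted rise at a log2 fold change of 0.73, but with 8 to 21 counts per library its standard error was 0.39 and the call was not made (edgeR adjusted p = 0.328). LSM12 had 30.6 and 22.4 against 18.7, 12.2 and 23.4 CPM, with 7 to 21 counts per library and a log2 fold change of -0.49 (SE 0.40, edgeR adjusted p = 0.591).

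**Figure D4:**
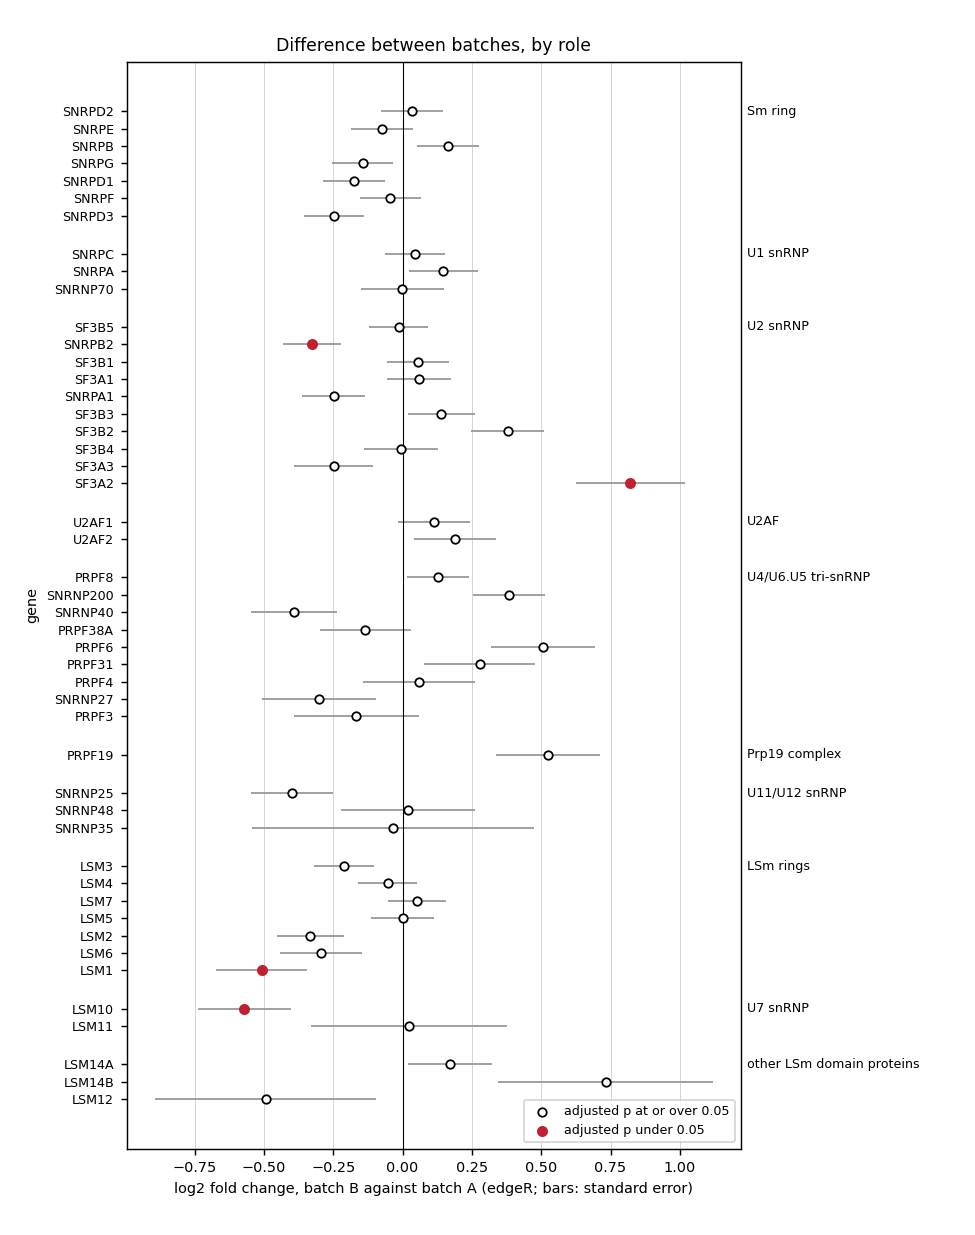
Log2 fold change of batch B against batch A for each gene (vertical axis, grouped by role), with the standard error as bars and filled red points for an adjusted p under 0.05. The 4 filled points are SF3A2 at 0.82, SNRPB2 at -0.33, LSM1 at -0.51 and LSM10 at -0.57, and values at both ends of the U2 group go in opposite directions.

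The fold change varied with the GC content of the whole annotated transcript. Reads mark the transcript start, and the base composition of the sequenced fragments was not measured. Over the 47 members, Spearman's rho between the log2 fold change and the GC content of the principal transcript was 0.44, and over the 8615 tested genes with a reference transcript it was 0.22. Genes are not independent replicates and share libraries and batches, so this is a description. SF3A2, the member with the largest rise, had the highest GC content (66.6%), while SNRPB2 had 37.5%, LSM1 47.2% and LSM10 57.6%. With a trend on GC content removed from each library, which was added once the values were known, 3 members were called, all lower in batch B: LSM10, LSM2 and SNRNP25. With transcript length, Spearman's rho was 0.29 over the members and was not computed over the 8615 genes. With the log2 of transcript length, Pearson's r was 0.25 over the members and 0.0092 over the 8615 genes.

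**Figure D5:**
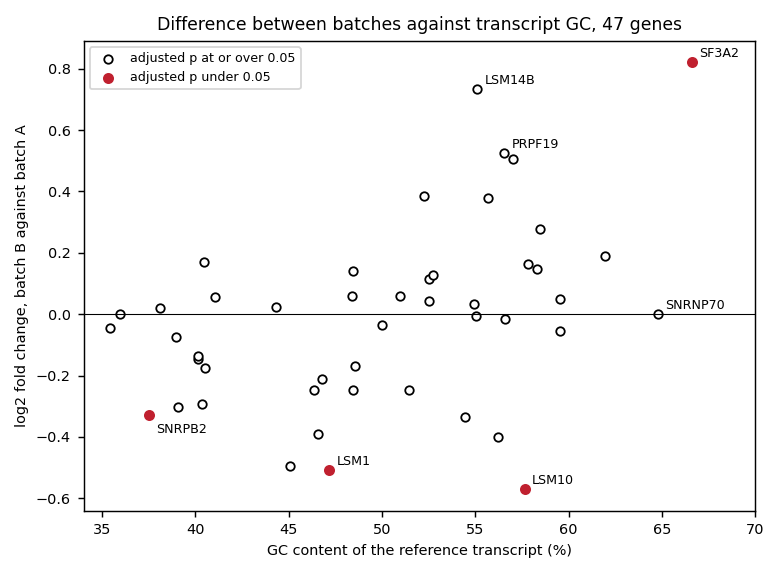
Log2 fold change of batch B against batch A (vertical axis) against the GC content of the reference transcript in percent (horizontal axis), with 1 point per gene and red points for an adjusted p under 0.05. SF3A2, at 66.6% GC and 0.82, is at the upper right, and LSM10, at 57.6% GC and -0.57, lies against the slope.

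Other genes of the pathway were counted from lists of snRNP proteins, Prp19-complex and step factors, U11/U12 proteins, snRNP assembly factors, the exon junction complex, LSm partners in mRNA decay and histone mRNA processing. Of 114 tested genes on these lists, 2 fell, 0 rose and 112 did not pass the test, a share of 1.75% against the background of 4.2%. Both that fell belong among the 29 tested Prp19-complex and step factors. PPIL1, a cyclophilin of the activated spliceosome, had 141 and 129 CPM in batch A and 83.0, 97.3 and 89.0 CPM in batch B (log2 fold change -0.55, SE 0.17, edgeR adjusted p = 0.0304). CWC15, a Prp19-associated protein, had 231 and 238 CPM in batch A and 131, 169 and 209 CPM in batch B (log2 fold change -0.39, SE 0.13, edgeR adjusted p = 0.0469). Neither gene overlapped between batches. PPIL1 was called in 0 of the 5 fits that left out a library (edgeR adjusted p = 0.0587 to 0.312), and CWC15 in 1 of them, without batch B library 3 (0.0102).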

How the data were processed

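The deposited table holds whole-number counts per gene symbol and library, with no normalization by the authors. The submitters' processing notes list STAR 2.4.0a, cutadapt 1.2.1 and the build hg19 (GRCh37). For the counter, annotation, strand use and collapse of molecular identifiers, nothing is stated in the sources used here, so the limits given for 0 counts cover counting error only, while standard errors come from the fit across libraries. A column's batch was read from the title prefix in its name. The 52 spike-in rows were left out. edgeR 4.0.16 (R 4.3.3) was fitted to all genes with TMM, filterByExpr and batch as the only term, with calls at an adjusted p under 0.05. For all 9215 genes edgeR estimated infinite prior degrees of freedom, so the spread is pooled over genes. Where a fit leaves batch A with 1 library, its spread is taken from batch B. DESeq2 1.42.0 and limma 3.58.1 served as alternatives. The edgeR script was also run on simulated data with the same spread for every gene. Such data check the script and cannot vouch for calls of genes that scatter widely, such as SF3A2. Transcript length and GC are those of the longest principal transcript in GENCODE 29 (GRCh38), matched by name for 18064 gene rows, a definition changed from the median transcript after implausibly short lengths were seen, and pseudogenes were aligned locally. The GC trend setting was added after seeing the data. Members and lists were chosen with earlier results of these data known. Named genes are the called members, the 3 largest fitted changes each way, the highest and lowest of each role, called genes of the other lists, pseudogene rows with at least 10 counts, SNRPN and snRNA rows with at least 20 counts. Other members are named for their values by role, and neighbours for their overlap. Protein sequences were not used here.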

Additional observations from a re-analysis of the deposited data

How the results depend on the processing

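The count of 4 called members (1 higher, 3 lower) stood beside 4.2% of all tested genes. It was 2 with limma-voom (1 and 1, beside 3.85%) and 2 without a filter on low counts (1 and 1, beside 1.29%). With the length trend removed it was 2 (1 and 1, beside 3.64%), and with thinning 1 (0 and 1, beside 2.79%). The DESeq2 Wald test called 0 of the 41 members to which it gave an adjusted p (0 and 0, beside 3.52%). There 11 members had an unadjusted p under 0.05 against 15 with edgeR, and the DESeq2 share over all genes at that cut is not given here. A mean count of at least 20 gave 3 higher (beside 220 of all 5974 tested genes), and the GC trend removed gave 0 higher (beside 96 of 8615). Over the fits that left out a library the count was 0 to 5 members, 0 to 1 higher and 0 to 4 lower. It was 0 when library 2 of either batch was left out, 1 for batch A library 3, 2 for batch B library 1 and 5 for batch B library 3. Over all genes, 387 were called, against 111 with DESeq2, 259 without the filter, 199 with thinning and 138 to 333 with a library left out, the lowest without batch A library 2. The count of 2 other spliceosome genes was 1 with DESeq2 size factors, limma-voom, thinning or the GC trend removed, 0 with DESeq2 or without the filter, 5 with a mean count of at least 20, and 0 to 1 over the fits that left out a library. The causes were not tested. The sign of the log2 fold change was the same in every setting run for 31 of 47 members. The share of counts taken by the members was lower in batch B by 0.05 to 0.08 percentage points in the 7 other settings tried, and the median level of 187 CPM was 180.4 to 194 CPM when a library was left out. No paired analysis was possible because the columns could not be matched to the replicate numbers of the labels: those of batch A end in 2 and 3 where the labels number 1 and 2, and no source says that libraries of equal number belong together.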

Other observations

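The RNAs to which these proteins bind had few counts. The libraries are primed with oligo-dT, and the part of priming in these low counts was not tested. The 166 rows of small nuclear RNAs and their copies held 264 counts in all, 60 and 77 in the libraries of batch A, against 32, 52 and 43 in those of batch B. RNU4ATAC, the U4atac RNA of the minor spliceosome, had counts of 9 and 4 against 3, 8 and 9 in the same order. RNU6-8 had counts of 7 and 9 against 2, 6 and 0.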
